A study of Cricetulus griseus with 19 samples.

Results

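Top2a, Cdc25b and Kif23 are 3 Chinese hamster genes that act in the last steps of the cell cycle, and their transcripts were followed across 19 RNA libraries of the Paradaux line. The members were found by RefSeq accession, which placed each of the 3 genes on exactly 1 of the 46718 transcript targets in the deposited tables. Only 528 targets received a symbol in this way, so other transcripts of these genes among the rest would not have been found. Paradaux derives from CHO-K1, an ovary-derived hamster line, and carries an inserted synthetic circuit through which cells sense and limit their own number. The libraries comprised 7 long-term cultures under paradoxical feedback, 7 under negative feedback and 4 with uncontrolled growth, and 1 library of the parental line. Under paradoxical feedback the signal between cells acts on both proliferation and death, whereas under negative feedback it limits growth. All groups share the cell line and the insert, which was detected in every library at 177 to 307 TPM, a level scaled by transcript length and library size. The culture label is the only difference that the labels record. Cells were harvested after 2 days of growth. Whether the numbered cultures were kept apart from the start is not in the labels, so the p-values rest on the spread between these samples, which may be technical in part.

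DNA topoisomerase II alpha, the product of Top2a, passes DNA strands through each other so that sister chromatids can be disentangled, and its transcript is abundant in dividing cells. Cdc25b encodes a phosphatase that removes inhibitory phosphates from cyclin-dependent kinases and so helps start mitosis. Kif23 encodes a kinesin motor of the centralspindlin complex, which bundles microtubules between the separating chromosomes and guides cytokinesis. All of them are held to be used mainly by cells that pass through S, G2 or M phase, and fewer cycling cells and less RNA per cell cannot be told apart in bulk samples like these.

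Libraries held between 9.91 and 13.2 M estimated counts, the number of reads assigned to each target by the quantifier. Counts of all 3 members were whole numbers in all 19 libraries, so no read was divided between them and similar transcripts, which held for 20.8% of the 28555 targets tested. The negative feedback cultures did not form a single set. On the first principal component over all tested targets, negative feedback cultures 3 to 7 lay at 158 to 221, while cultures 1 and 2 lay at -161 and -141, inside the range of the uncontrolled cultures (-169 to -122). Paradoxical feedback cultures lay at -79.7 to 38.0, and the parental library at -84.2. Results that rest on negative feedback are therefore given with and without cultures 3 to 7. No label gives this division, which was read from the same expression values. Calls and p-values of fits without either set are thus descriptive and do not test the division. Cell type markers fixed for the line matched no symbol among the targets and could not be read.

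Cdc25b separated paradoxical feedback from uncontrolled cultures most clearly of the 3 genes. Its level, in CPM, estimated counts relative to the scaled total of the library, was 51.7, 35.5, 57.0, 35.5, 38.7, 39.4 and 52.8 CPM in paradoxical feedback cultures 1 to 7. Negative feedback cultures 1 to 7 had 13.0, 14.9, 81.0, 65.2, 64.3, 60.0 and 56.7 CPM, uncontrolled cultures 1 to 4 had 10.9, 9.57, 11.2 and 15.0 CPM, and the parental library had 19.0 CPM. Every paradoxical feedback culture lay above every uncontrolled culture. Negative feedback cultures 1 and 2 lay among the uncontrolled cultures, whereas cultures 3 to 7 lay far above them. The parental library was above the highest uncontrolled culture and below the lowest paradoxical feedback culture.

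Top2a, the most abundant of the 3, stood at 692, 601, 758, 428, 636, 651 and 887 CPM in paradoxical feedback cultures 1 to 7. It stood at 343, 297, 1399, 1236, 1117, 1160 and 951 CPM in negative feedback cultures 1 to 7, at 270, 301, 292 and 464 CPM in uncontrolled cultures 1 to 4, and at 460 CPM in the parental library. Negative feedback cultures 3 to 7 were all above the highest paradoxical feedback culture. Paradoxical feedback overlapped the uncontrolled group through paradoxical feedback culture 4 and uncontrolled culture 4, the lowest and the highest of their groups. The parental library was close to uncontrolled culture 4.

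Kif23 varied over a narrower range. Paradoxical feedback cultures 1 to 7 had 123, 162, 144, 69.6, 117, 125 and 125 CPM, negative feedback cultures 1 to 7 had 68.8, 70.1, 147, 96.9, 104.8, 88.5 and 93.7 CPM, and uncontrolled cultures 1 to 4 had 75.4, 56.0, 83.8 and 70.8 CPM, with 85.9 CPM in the parental library. Paradoxical feedback culture 4 was the single one of its group inside the uncontrolled range. Negative feedback cultures 3 to 7 were above the highest uncontrolled culture, but culture 6 exceeded it by little, and cultures 1 and 2 were inside the uncontrolled range.

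**Figure D1:**
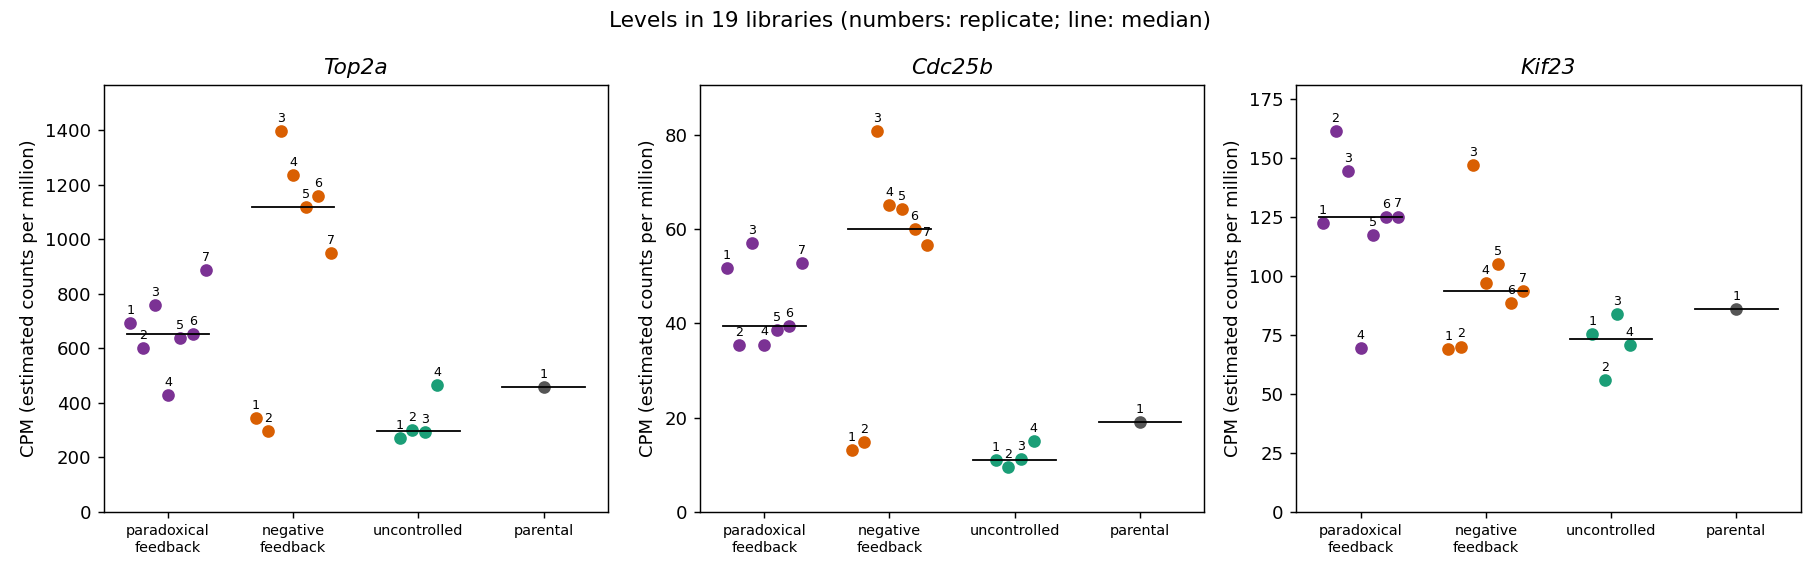
Levels of Top2a, Cdc25b and Kif23 in CPM (vertical axis, from 0) in each of 19 libraries, by culture condition; each point is a library with its replicate number and the line is the group median. Negative feedback cultures 1 and 2 lie apart from cultures 3 to 7, most widely for Cdc25b (13.0 and 14.9 against 56.7 to 81.0 CPM) and Top2a.

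Under negative feedback, Cdc25b and Top2a were called higher than in uncontrolled cultures, and Kif23 was not called. Cdc25b averaged 50.7 ± 26.3 CPM in the 7 negative feedback cultures (SD) and 11.7 ± 2.31 CPM in the 4 uncontrolled cultures (SD), which is higher by 2.12 ± 0.43 on the log2 scale (SE; edgeR quasi-likelihood test, Benjamini-Hochberg adjusted p = 0.0236). Top2a averaged 929 ± 437 CPM under negative feedback and 332 ± 89.1 CPM in uncontrolled cultures, higher by 1.48 ± 0.37 on the log2 scale (edgeR adjusted p = 0.0257). Kif23 averaged 95.7 ± 26.2 CPM under negative feedback and 71.5 ± 11.7 CPM in uncontrolled cultures, and its log2 fold change of 0.42 ± 0.22 had a 95% interval of -0.04 to 0.88 (edgeR adjusted p = 0.194). Of all 28555 targets, 8.65% were called higher in this comparison. The rises lay in negative feedback cultures 3 to 7, which had 56.7 to 81.0 CPM of Cdc25b and 951 to 1399 CPM of Top2a. Without these 5 cultures the log2 fold changes were 0.26 for Cdc25b, -0.05 for Top2a and -0.04 for Kif23, and none of them was called. Without cultures 1 and 2 in their place, the log2 fold changes were 2.47, 1.80 and 0.55, and all 3 genes were called (edgeR adjusted p of 3.81e-07, 7.18e-06 and 0.0476). Because the left-out cultures were picked from these expression values, those p-values are descriptive only. With all cultures, the calls of Cdc25b and Top2a were lost when any 1 of the 4 uncontrolled cultures was left out (edgeR adjusted p from 0.0525 to 0.0830), and that of Top2a also without negative feedback culture 4 (0.0512). In a fit of the negative feedback and uncontrolled cultures alone, neither was called (edgeR adjusted p = 0.0798 for both).

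Under paradoxical feedback, Cdc25b and Kif23 were called higher than in uncontrolled cultures, while Top2a missed the threshold. Cdc25b averaged 44.4 ± 9.13 CPM in the 7 paradoxical feedback cultures (SD), against 11.7 ± 2.31 CPM in the 4 uncontrolled cultures (SD), and was higher by 1.93 ± 0.43 on the log2 scale (edgeR adjusted p = 0.0197). Kif23 averaged 124 ± 28.4 CPM under paradoxical feedback and 71.5 ± 11.7 CPM in uncontrolled cultures, higher by 0.79 ± 0.22 on the log2 scale (edgeR adjusted p = 0.0427). Top2a averaged 665 ± 141 CPM under paradoxical feedback and 332 ± 89.1 CPM in uncontrolled cultures, a log2 fold change of 1.00 ± 0.36 with a 95% interval of 0.23 to 1.77 (edgeR adjusted p = 0.0989). Of all targets 4.93% were called higher, and 7.94% had every paradoxical feedback culture above every uncontrolled culture, as Cdc25b did. All 3 comparisons drew on the spread of the negative feedback cultures, since all groups shared a single fit. In a fit of the paradoxical feedback and uncontrolled cultures alone, all 3 members were called, with edgeR adjusted p of 0.000269 for Cdc25b, 0.00677 for Top2a and 0.0174 for Kif23. With all cultures, the Kif23 call held in 4 of 18 fits that left out a single culture, those without negative feedback culture 1, 2 or 3 or paradoxical feedback culture 4, and its log2 fold change ranged from 0.69 to 0.89. Top2a was called without negative feedback culture 1 or 2 (edgeR adjusted p of 0.0489 and 0.0414). The Cdc25b call was lost without uncontrolled culture 1, 2 or 3 (edgeR adjusted p of 0.0737, 0.0716 and 0.0533).

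Between paradoxical and negative feedback, none of the 3 members was called. The log2 fold change was -0.48 ± 0.30 for Top2a (95% interval -1.11 to 0.15, edgeR adjusted p = 0.460), -0.19 ± 0.33 for Cdc25b (-0.90 to 0.51, adjusted p = 0.864) and 0.37 ± 0.18 for Kif23 (-0.02 to 0.76, adjusted p = 0.310). Of all targets 0.27% were called in this comparison. The mean over negative feedback cultures joined unlike values. Without cultures 3 to 7 all 3 log2 fold changes were above 0, at 1.07 for Top2a and 1.68 for Cdc25b, which were both called (edgeR adjusted p of 0.0272 and 0.00341), and at 0.84 for Kif23 (adjusted p = 0.0595). Without cultures 1 and 2, Top2a and Cdc25b were called lower under paradoxical feedback, at -0.81 and -0.55 (edgeR adjusted p of 0.00318 and 0.0198), and Kif23 was at 0.23 (adjusted p = 0.415). The p-values without either set are descriptive, since the sets were picked from these data. Top2a under paradoxical feedback (428 to 887 CPM) lay between the 2 sets of negative feedback cultures without overlap, and so did Cdc25b except for paradoxical feedback culture 3, at 57.0 CPM against 56.7 CPM in negative feedback culture 7. Kif23 under paradoxical feedback overlapped both sets. The first principal component over all tested targets also placed the paradoxical feedback cultures (-79.7 to 38.0) between these sets. The share of targets with this position was not counted, so it is not shown to be particular to Top2a and Cdc25b.

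**Figure D2:**
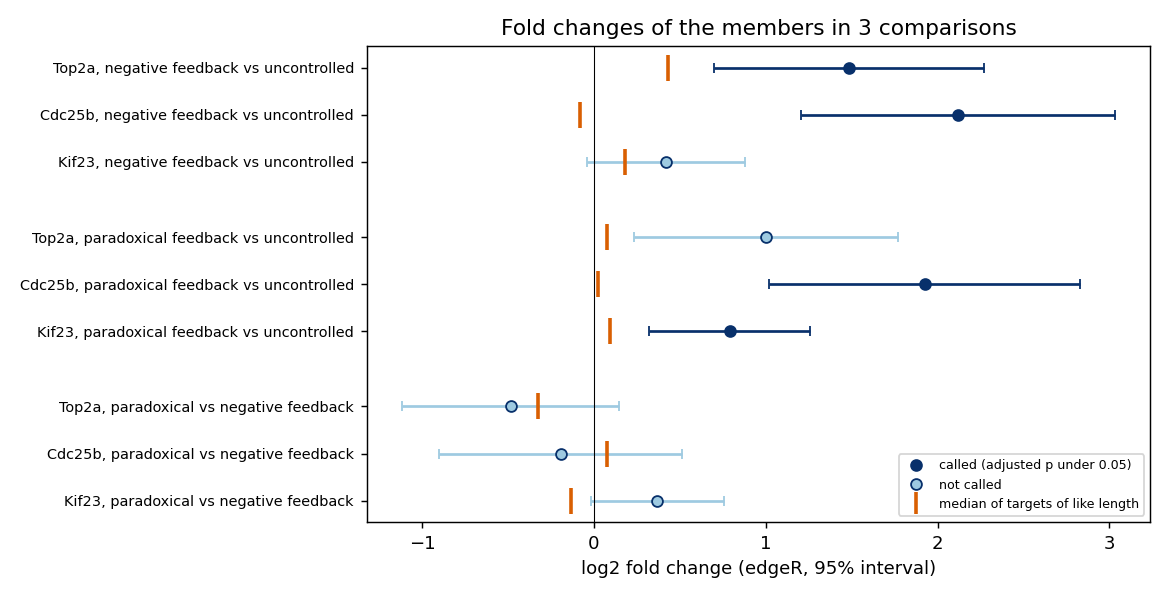
Log2 fold changes of the 3 genes (horizontal axis) in 3 comparisons with 95% intervals from edgeR; dark points passed an adjusted p of 0.05, and orange ticks are the median of all tested targets whose length is within 20% of the gene's. Cdc25b was called against uncontrolled cultures in both feedback conditions, at 2.12 and 1.93.

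Because both feedback conditions were set against the same 4 uncontrolled cultures, the members' fold changes in these comparisons share their denominator. Side by side, Cdc25b was at 1.93 under paradoxical and 2.12 under negative feedback, Top2a at 1.00 and 1.48, and Kif23 at 0.79 and 0.42, all as log2 fold changes over uncontrolled cultures. Kif23 was the only member whose value was larger under paradoxical feedback, and the difference between the feedback conditions did not pass the test.

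Ratios between the members within a library do not depend on how libraries are scaled. The ratio of Cdc25b to Top2a, in TPM and thus per length, was 0.275, 0.217, 0.277, 0.305, 0.224, 0.223 and 0.219 in paradoxical feedback cultures 1 to 7. It was 0.140, 0.185, 0.213, 0.194, 0.212, 0.190 and 0.219 in negative feedback cultures 1 to 7 and 0.149, 0.117, 0.141 and 0.119 in uncontrolled cultures 1 to 4, with 0.152 in the parental library. Relative to Top2a, Cdc25b was thus highest on average under paradoxical feedback. The log2 ratio was higher by 0.91 under paradoxical feedback than without control (exact two-sided permutation p = 0.00606, the smallest that 7 against 4 can give, adjusted p = 0.0182 over 9 ratio tests), and the groups did not overlap. Without uncontrolled culture 1, 2 or 3 the adjusted p of this difference was 0.05, which did not pass, at differences of 0.98, 0.86 and 0.95. Fewer cultures raise the smallest p that the permutation can give, so these tests cannot show whether the difference is weaker. The log2 ratio was higher by 0.36 under paradoxical than under negative feedback (exact permutation p = 0.00117, adjusted 0.0105). Even so, paradoxical feedback culture 2 lay below negative feedback culture 7, and paradoxical feedback culture 7 was level with it at 0.219. This difference passed in each of 14 tests that left out a single culture, with values of 0.29 to 0.40. Against uncontrolled cultures, negative feedback was higher by 0.55 (exact permutation p = 0.0182, adjusted 0.0327), a call that held in 2 of 11 tests that left out a single culture, those without negative feedback culture 1 or 2.

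Ratios to Kif23 were highest in negative feedback cultures 3 to 7. The TPM ratio of Top2a to Kif23 was 2.10 to 3.99 under paradoxical feedback. Under negative feedback it was 2.80 and 2.39 in cultures 1 and 2 but 5.36 to 7.38 in cultures 3 to 7, and uncontrolled cultures had 1.96 to 3.69. Its log2 value was lower by 0.68 under paradoxical than under negative feedback, written as a difference of -0.68 (exact permutation p = 0.0286, adjusted 0.0428), and this call held in 4 of 14 tests that left out a single culture, those without negative feedback culture 1 or 2 or without paradoxical feedback culture 4 or 7. Without negative feedback cultures 3 to 7 the direction turned, with a difference of 0.24 that did not pass. Between paradoxical feedback and uncontrolled cultures it differed by 0.24 (exact permutation p = 0.315, adjusted 0.355), and between negative feedback and uncontrolled cultures by 0.92 (exact permutation p = 0.0485, adjusted 0.0623), which passed without negative feedback culture 1 or 2. The TPM ratio of Cdc25b to Kif23 was 0.455 to 1.06 under paradoxical feedback and 0.278 to 0.438 in uncontrolled cultures, a log2 difference of 1.15 (exact permutation p = 0.00606, adjusted 0.0182). Under negative feedback this ratio was 0.392 and 0.440 in cultures 1 and 2 and 1.14 to 1.41 in cultures 3 to 7, and its log2 value was higher by 1.47 than in uncontrolled cultures (exact permutation p = 0.0121, adjusted 0.0273). Without cultures 3 to 7 that difference was 0.30, and 2 against 4 cultures cannot give a p below 0.133. Without uncontrolled culture 1, 2 or 3 the adjusted p was 0.05 to 0.06 for negative feedback and 0.05 for paradoxical feedback (exact permutation), so neither call held there. The smallest p that the permutation can give is also higher with fewer cultures, so these tests cannot show whether the differences are weaker. Between the feedback conditions the log2 difference was -0.31 (exact permutation p = 0.367, adjusted 0.367).

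**Figure D3:**
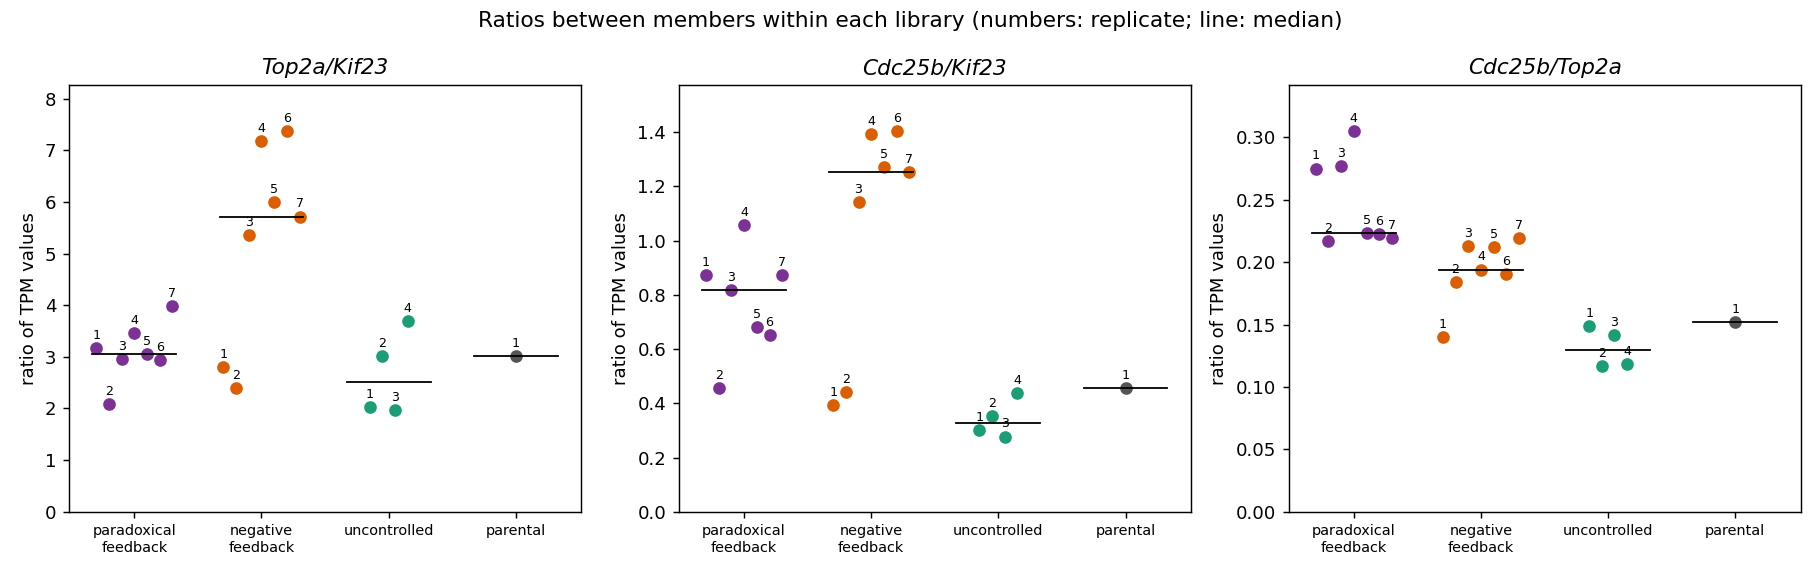
Ratios of TPM values between pairs of the 3 genes (vertical axes, from 0) within each of 19 libraries, by culture condition; points carry the replicate number and lines are group medians. The ratio of Cdc25b to Top2a is 0.217 to 0.305 under paradoxical feedback and 0.117 to 0.149 in uncontrolled cultures.

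Per unit of length, Top2a was the highest of the 3 in every library. It had 98.8 to 214 TPM under paradoxical feedback, 58.1 to 372 TPM under negative feedback, 56.4 to 98.5 TPM in uncontrolled cultures and 94.5 TPM in the parental library. Kif23 was at 28.5 to 64.3 TPM under paradoxical feedback, 22.1 to 69.4 TPM under negative feedback, 19.1 to 28.7 TPM in uncontrolled cultures and 31.3 TPM in the parental library. Cdc25b was at 24.1 to 46.9 TPM under paradoxical feedback, 8.69 to 79.3 TPM under negative feedback, 6.77 to 11.7 TPM in uncontrolled cultures and 14.4 TPM in the parental library. Cdc25b was therefore below Kif23 in all uncontrolled and parental libraries, and above it in negative feedback cultures 3 to 7 and in paradoxical feedback culture 4. The Cdc25b target has 1722 nt, which is a multiple of 3 and could be a coding sequence without its ends, so untranslated ends may be missing from it, while the Top2a and Kif23 targets have 5536 and 3248 nt. Levels per length between these records are comparable only to that extent.

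The cultures of a group differed among themselves by unequal amounts. Under negative feedback the SD of log2 CPM was 1.09 for Cdc25b and 0.93 for Top2a, against 0.37 for Kif23 and a median of 0.93 over all tested targets. Under paradoxical feedback it was 0.29 for Cdc25b, 0.33 for Top2a and 0.38 for Kif23, with a median of 0.65 over all tested targets. In uncontrolled cultures it was 0.27, 0.35 and 0.25 for Cdc25b, Top2a and Kif23, with a median of 0.42. The members thus spread less than the typical target under paradoxical feedback and in uncontrolled cultures, and Kif23 also did so under negative feedback. This spread also depends on the number of counts, and targets of like abundance were not compared. Among the 7 paradoxical feedback cultures, Top2a and Cdc25b in CPM had a Pearson r of 0.79 (exact permutation p = 0.0115, adjusted 0.0690) and a Spearman rho of 0.93 (exact permutation p = 0.00675, adjusted 0.0690), adjusted over both coefficients of 6 relations, so neither passed. Without cultures 4 and 7, the farthest from the median of Top2a, r was 0.97. Top2a and Kif23 had an r of 0.53 and a rho of 0.39 (exact permutation p of 0.205 and 0.396, adjusted 0.615 and 0.712), and r was -0.11 without the same 2 cultures. Cdc25b and Kif23 had an r of 0.28 and a rho of 0.21 (exact permutation p of 0.593 and 0.662, adjusted 0.712 and 0.713), and r was 0.08 without cultures 3 and 7.

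The share of counts on short transcripts differed between the sets of cultures. Targets under 800 nt took 8.50 to 12.4% of counts under paradoxical feedback. Under negative feedback they took 14.1 and 13.3% in cultures 1 and 2 but 6.12 to 7.22% in cultures 3 to 7. Uncontrolled cultures had 12.2 to 13.4% and the parental library 11.8%. Negative feedback cultures 3 to 7, with the lowest share, had the highest Top2a. For Kif23 the cultures with the lowest share were not all the highest. Negative feedback cultures 6 and 7 had 88.5 and 93.7 CPM, and paradoxical feedback culture 5, at 12.4%, had 117 CPM. Negative feedback cultures 3 to 7 (88.5 to 147 CPM) were still above every uncontrolled culture (56.0 to 83.8 CPM) in Kif23. The part of this share in the result was looked at only with the share as a covariate. The share comes from the same counts and sets negative feedback cultures 3 to 7 below all other libraries. Such a fit therefore cannot tell the share from the division of the cultures. With the share in the fit, the log2 fold change of Cdc25b under paradoxical feedback was 1.26 and remained called (edgeR adjusted p = 0.00494). Those of Kif23 and Top2a were 0.59 (adjusted p = 0.102) and 0.45 (0.232). For negative feedback against uncontrolled cultures, the values with the covariate were 0.58 for Cdc25b, 0.23 for Top2a and 0.03 for Kif23, and none was called (edgeR adjusted p of 0.779, 1 and 1). Within the paradoxical feedback cultures the share had an r of -0.30 with Top2a, -0.37 with Cdc25b and -0.24 with Kif23, and a rho of -0.32, -0.18 and -0.64, with exact permutation p from 0.139 to 0.713 (adjusted 0.556 to 0.713). Leaving out the 2 cultures farthest from the median share, r was -0.54, -0.02 and -0.46.

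**Figure D4:**
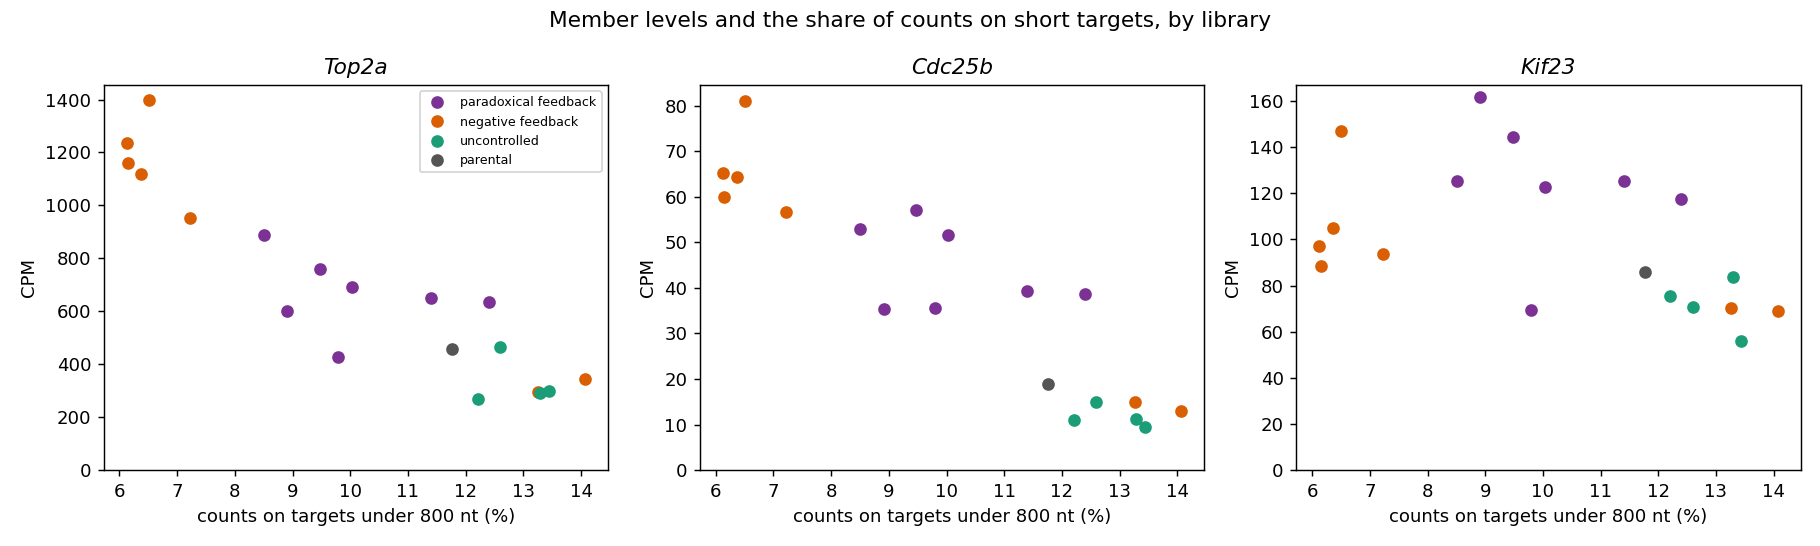
CPM of each gene (vertical axes, from 0) against the percentage of a library's counts on targets under 800 nt (horizontal axes); each point is a library, coloured by culture condition. Negative feedback cultures 3 to 7 have the lowest share (6.12 to 7.22%) and the highest Top2a, while paradoxical feedback cultures at 8.50 to 12.4% have more Cdc25b than uncontrolled cultures at 12.2 to 13.4%.

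Targets of like length had smaller median differences than Cdc25b and Top2a. Among 5132 tested targets within 20% of the Cdc25b length, the median log2 fold change was 0.03 under paradoxical and -0.08 under negative feedback, both against uncontrolled cultures, and 8.73% and 10.7% of them had a higher value than Cdc25b. Among 3903 targets of a length like that of Top2a, the median was 0.08 under paradoxical and 0.43 under negative feedback, and 22.7% and 28.9% of them were above Top2a. Among 6498 targets of a length like that of Kif23, the median was 0.09 and 0.18, and 27.9% and 43.0% were above Kif23. Between paradoxical and negative feedback, the medians were 0.08, -0.32 and -0.13 for lengths like those of Cdc25b, Top2a and Kif23. Tested targets with a symbol, 285 in all, had a median of 0.55 under paradoxical and 0.43 under negative feedback, against 0.02 and 0.04 over all tested targets. The 133 with a symbol and a length that is a multiple of 3, like Cdc25b, had a median of 0.69 under paradoxical and 0.83 under negative feedback.

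**Figure D5:**
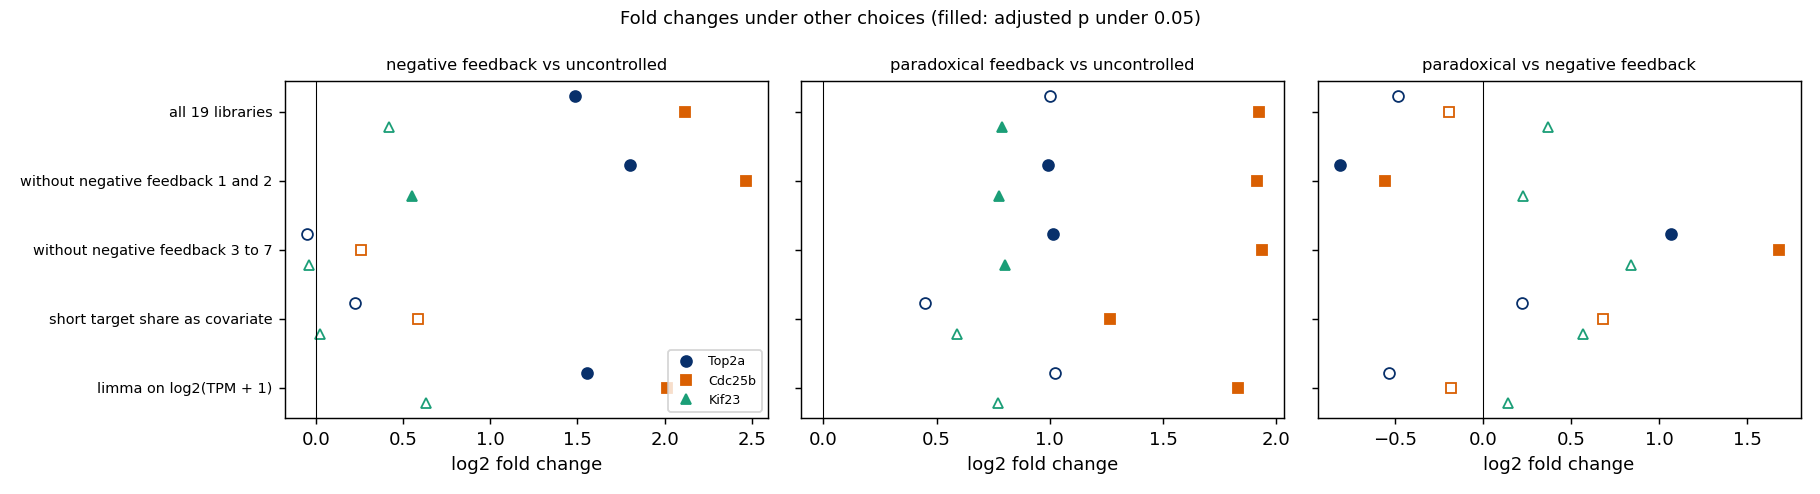
Log2 fold changes of the 3 genes (horizontal axes) in 3 comparisons with all libraries, without sets of negative feedback cultures, with the share of short targets as a covariate, and on the TPM scale; filled symbols passed an adjusted p of 0.05. Cdc25b under paradoxical feedback stays called in all 5, at 1.26 to 1.94, whereas Top2a under negative feedback is at -0.05 without cultures 3 to 7.

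Other genes of mitosis were read where they had a symbol. Of a list of 94 mitosis genes, 5 matched a target and all 5 were tested. Under negative feedback the list's median log2 fold change over uncontrolled cultures was 0.83. It was 0.04 over all tested targets and 0.43 over the 285 with a symbol, from which the list's genes come. Over the 133 of these whose length is a multiple of 3, as for Mad1l1, Cenpa, Kif2c and Cdc25a, it was also 0.83. The list's median thus did not exceed that of this class. Of the 5, 2 were called higher than in uncontrolled cultures and none lower, where 8.65% of all tested targets were called higher. These were Cdc25a, a phosphatase related to Cdc25b that acts earlier in the cycle, and Mad1l1, a spindle checkpoint protein whose reads were partly shared with similar transcripts. Cdc25a stood at 18.0 to 52.8 CPM in negative feedback cultures 3 to 7, against 1.87 and 2.43 CPM in cultures 1 and 2 and 1.48 to 5.58 CPM in uncontrolled cultures (log2 fold change 2.94 ± 0.78, edgeR adjusted p = 0.0290). Mad1l1 stood at 68.4 to 99.1 CPM in cultures 3 to 7, against 37.3 and 43.3 CPM in cultures 1 and 2 and 33.8 to 50.7 CPM in uncontrolled cultures (0.83 ± 0.23, adjusted p = 0.0352). Both had the division of the negative feedback cultures seen in Top2a and Cdc25b. Over all targets, 2787 were called in this comparison with all cultures, 13 without cultures 3 to 7 and 11460 without cultures 1 and 2. Cdc25a and Mad1l1 were named because they were called here, so the division is not shown to be particular to them.

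Under paradoxical feedback Mad1l1 was the only 1 of the 5 called, at 74.0 to 106 CPM under paradoxical feedback against 33.8 to 50.7 CPM in uncontrolled cultures (1.08 ± 0.24, edgeR adjusted p = 0.0190), where 4.93% of all tested targets were called higher. The list's median was 1.08, against 0.02 over all tested targets and 0.55 over those with a symbol. The median was 0.69 over targets with a symbol and a length that is a multiple of 3. Cdc25a was at 5.87 to 21.0 CPM under paradoxical feedback, above all uncontrolled cultures, as were 7.94% of all tested targets. Its log2 fold change of 2.13 ± 0.74 missed the threshold (edgeR adjusted p = 0.0872). Kif2c, a kinesin that takes microtubules apart at centromeres, with shared reads, had 13.5 to 40.4 CPM under paradoxical feedback, 4.28 to 45.3 CPM under negative feedback and 0 to 7.36 CPM in uncontrolled cultures. Its log2 fold change was 3.46 ± 1.08 for paradoxical feedback (edgeR adjusted p = 0.0622) and 3.42 ± 1.08 for negative feedback (0.0529). Cenpa, the centromeric histone, with shared reads, was at 0.27 ± 0.21 and 0.00 ± 0.20 for paradoxical and negative feedback over uncontrolled cultures, and Top1, the other main nuclear topoisomerase, at 0.35 ± 0.18 in both. None of the 5 was called between the feedback conditions. Of 15 kinesins with other roles, none matched a symbol.

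In the list of 41 genes of G1, S phase entry and cell cycle inhibition, 11 matched and 10 were tested. Under paradoxical feedback 4 were called higher than in uncontrolled cultures and none lower, where 4.93% of all tested targets were called higher. The list's median log2 fold change was 1.56, against 0.02 over all tested targets and 0.55 over those with a symbol. Over those with a symbol and a length that is a multiple of 3, as for Cdk2, Ccnd1, Cdt1, Cdc6 and Tk1, it was 0.69. The called genes were Cdk2 (2.32 ± 0.53), the replication clamp Pcna (1.55 ± 0.33), thymidine kinase Tk1 (1.64 ± 0.41, shared reads) and Cdt1, which licenses replication origins (1.67 ± 0.49), with edgeR adjusted p from 0.0168 to 0.0492. Under negative feedback the list's median was 1.16, against 0.04 over all tested targets and 0.43 over those with a symbol. The median was 0.83 over targets with a symbol and a length that is a multiple of 3. Of the list, 3 genes were called higher and none lower, where 8.65% of all tested targets were called higher. They were Cdk2 (2.50 ± 0.54), Cdt1 (1.68 ± 0.49) and cyclin D1, Ccnd1 (4.53 ± 1.01, shared reads), with edgeR adjusted p from 0.0236 to 0.0390. These rises too lay in negative feedback cultures 3 to 7, which is not shown to be particular to genes picked as called in this comparison. Cdk2 had 51.9 to 61.0 CPM in those 5, while cultures 1 and 2 had 6.61 and 8.17 CPM and uncontrolled cultures 6.07 to 9.05 CPM. Cdt1 had 36.9 to 50.3 CPM in cultures 3 to 7, against 5.89 and 11.2 CPM in cultures 1 and 2 and 6.50 to 14.2 CPM in uncontrolled cultures. Ccnd1 had 13.3 to 20.6 CPM in cultures 3 to 7, against 0.446 and 0.487 CPM in cultures 1 and 2 and 0.0791 to 0.761 CPM in uncontrolled cultures. Cdc45, a replication factor with shared reads, was at 0.61 ± 0.25 for paradoxical and -0.38 ± 0.24 for negative feedback and was called in neither (edgeR adjusted p of 0.138 and 0.291). Cdc6, which loads the replicative helicase, was at 0 to 6.66 CPM under negative feedback and at 0 CPM in all paradoxical feedback and uncontrolled cultures. Cdkn1b, an inhibitor of cyclin-dependent kinases, was at 0.55 ± 0.27 for paradoxical and 0.49 ± 0.27 for negative feedback and was called in neither (edgeR adjusted p of 0.215 and 0.222). None of the 10 was called between the feedback conditions.

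The genes whose pattern was most like that of each member were taken by the Pearson correlation of log2 CPM over the 19 libraries, among the other 284 tested targets with a symbol. For Cdc25b they were Cdk2 (r = 0.98), Dicer1 (0.98, shared reads), the DNA damage sensor Parp1 (0.98), Dph2 (0.98) and Ercc3 (0.97), a helicase of transcription and repair. For Top2a they were Cdc25a (0.97), Dicer1 (0.96, shared reads), the protease Furin (0.95, shared reads), Noc3l (0.95) and Tsn (0.95, shared reads). Top2a and Cdc25b had an r of 0.95, which placed Cdc25b at rank 7 for likeness to Top2a. Kif23 had lower values, with the alpha-tubulin Tuba1b (0.86, shared reads), the beta-tubulin Tubb6 (0.85, shared reads), the co-chaperone Stip1 (0.85), the elongation factor Eef1a1 (0.84, shared reads) and the heterochromatin protein Cbx3 (0.84) most like it. Its r was 0.73 with Cdc25b and 0.65 with Top2a, at ranks 33 and 55. The libraries fall into sets, so these values describe this series and carry no test.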

How the data were processed

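Polyadenylated RNA of 19 libraries was sequenced. Trim Galore and kallisto were used per the submitters' processing notes, which give no versions. Neither the genome build nor the index annotation is given in the sources used here. Per the file headers, each deposited table lists 46718 targets with their lengths, estimated counts and TPM values. The estimated counts deposited by the authors are reads assigned to a target and need not be whole. The TPM values deposited by the authors scale them by effective length to a common total, with effective lengths that did not differ between files. Symbols came from a table of RefSeq genes of assembly CriGri-PICRH-1.0, used for names only, which matched 528 targets.

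Counts were rounded to whole numbers, filtered with filterByExpr, normalized by TMM and fitted per target with edgeR 4.0.16 in R 4.3.3 (quasi-likelihood test, 1 coefficient per group, all 19 libraries). Benjamini-Hochberg adjustment ran over the 28555 tested targets, with a threshold of 0.05. Log2 CPM used a prior count of 2. A count was called whole within 1e-06. Ratios between members were tested by exact permutation of cultures, two-sided (scipy 1.17.1), and adjusted over 9 tests. Counting without molecular identifiers does not give independent molecules. The members and gene lists were chosen with earlier results of these data known. Named genes were the members, all called or tested genes of the lists, and the 5 targets most like each member. Alternatives were other scalings, filters and samples, a replicate block, limma 3.58.1 and DESeq2 1.42.0. The TPM fit and the left-out cultures for the ratios were added after seeing the data. Replicate numbers were not treated as pairs. No sequences are shown because none were in the tables used here.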

Additional observations from a re-analysis of the deposited data

Results flagged for a closer look

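In the uncontrolled group, Top2a in culture 4 stood at 464 CPM, apart from the other 3 cultures at 270 to 301 CPM, by a gap that is large relative to the group's whole range. Chance gives such a gap in about 1 in 20 groups, and 18 groups were examined, 9 of member levels and 9 of member ratios. Without this culture the log2 fold change of Top2a was 1.69 for negative feedback (edgeR adjusted p = 0.0525) and 1.21 for paradoxical feedback (adjusted p = 0.107), both against uncontrolled cultures.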

How the results depend on the processing

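Few of the calls were independent of the cultures in the fit, and 4 uncontrolled cultures limit all of them. Log2 fold changes are given in the order Top2a, Cdc25b, Kif23 where all are named. Negative feedback against uncontrolled cultures: with just the groups compared in the fit Top2a was at 1.46 and Cdc25b at 2.10, neither called. With the short target share as a covariate they were at 0.23 and 0.58. Without negative feedback cultures 3 to 7 the members were at -0.051, 0.26 and -0.039, and without cultures 1 and 2 Kif23 was called at 0.55. Leaving out a single culture gave 1.36 to 1.69 for Top2a, 1.97 to 2.29 for Cdc25b and 0.29 to 0.51 for Kif23. Paradoxical feedback against uncontrolled cultures: Top2a was called by DESeq2 (0.95), with just the groups compared in the fit (0.99), and without negative feedback cultures 3 to 7 (1.01) or 1 and 2 (0.99). Cdc25b was not called by limma-voom (1.91). Kif23 was not called with RLE size factors (0.74), library size alone (0.67), no filter (0.81), limma-voom (0.75), the covariate (0.59), the replicate block (0.73) or limma on log2(TPM + 1) (0.77). Leaving out a single culture gave 0.91 to 1.21, 1.84 to 2.07 and 0.69 to 0.89. Paradoxical against negative feedback: with the covariate Top2a was at 0.22 and Cdc25b at 0.68, and by limma-voom Cdc25b was at 0.024. Without cultures 3 to 7 they were at 1.07 and 1.68, and without cultures 1 and 2 at -0.81 and -0.55. Leaving out a single culture gave -0.63 to -0.36, -0.36 to -0.04 and 0.29 to 0.50, none of them called. The cause of these changes was not tested.

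The number of targets called for negative feedback against uncontrolled cultures was 2787, with 6361 by DESeq2, 5039 by limma-voom (1637 higher and 3402 lower), 6811 on the TPM scale, 10 with only the groups compared, 5 with the covariate, 13 without cultures 3 to 7, 11460 without cultures 1 and 2, and 7 to 6938 without a single culture. For paradoxical feedback against uncontrolled cultures it was 1835, with 4730 by DESeq2, 4956 with only the groups compared, 4926 without negative feedback cultures 3 to 7, 5675 without cultures 1 and 2, and 127 to 3204 without a single culture. TPM gave 984 higher and 1444 lower, limma-voom 1082 and 1507, and library size alone 905 and 521, against 1408 and 427 in the reported fit. Between the feedback conditions it was 77, with 11 by RLE size factors, 42 by library size alone, 2 with no filter, 167 with a CPM of at least 1 in 4 libraries, 1777 by DESeq2, 297 by limma-voom, 0 with only the groups compared, 611 with the covariate, 2454 and 5937 without cultures 3 to 7 or 1 and 2, 165 without the parental library, 31 on the TPM scale and 0 to 989 without a single culture; 5033 had an unadjusted p under 0.05 in the reported edgeR fit. On the TPM scale the median target moved by 0.13 for negative feedback against uncontrolled cultures and by -0.11 between the feedback conditions.

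For the log2 ratios without negative feedback cultures 3 to 7, differences from uncontrolled cultures were 0.30 for Cdc25b to Kif23 and 0.30 for Cdc25b to Top2a. Those of paradoxical from negative feedback were then 0.24 for Top2a to Kif23, 0.85 for Cdc25b to Kif23 and 0.62 for Cdc25b to Top2a, where 7 against 2 cultures cannot give a p below 0.0556. Without cultures 1 and 2, Top2a to Kif23 passed for negative feedback against uncontrolled cultures (1.28), and Cdc25b to Kif23 for paradoxical against negative feedback (-0.78). Both are descriptive, as the left-out cultures were picked from these data. Leaving out a single culture, negative feedback against uncontrolled cultures gave 0.79 to 1.09 for Top2a to Kif23, 1.37 to 1.68 for Cdc25b to Kif23 and 0.50 to 0.63 for Cdc25b to Top2a. Paradoxical feedback against uncontrolled cultures gave 1.06 to 1.28 for Cdc25b to Kif23 and 0.86 to 0.98 for Cdc25b to Top2a. The adjusted p was 0.05 for both without uncontrolled culture 1, 2 or 3 and 0.0375 for both without culture 4 (exact permutation). Leaving out cultures raises the smallest p that the permutation can give. Paradoxical against negative feedback gave -0.85 to -0.58 for Top2a to Kif23.

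Same-numbered cultures showed no evident pairing, with correlations of their deviations from -0.16 to 0.11. These values cannot exclude a pairing, since the division within negative feedback enters the deviations. With the number as a replicate block, Top2a and Cdc25b were at 0.98 and 1.45 for negative feedback against uncontrolled cultures with no target called (0), neither of them called. For paradoxical feedback against uncontrolled cultures Kif23 was at 0.73 and not called (edgeR adjusted p = 0.169), with 463 targets called in all, and Cdc25b at 0.015 between the feedback conditions with 0 called.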
